A study of Mus musculus with 11 samples.

Results

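MamBo43 is a mouse mammary carcinoma cell line that was described here before and after long-term culture with trastuzumab, the humanized antibody against the HER2 receptor. Its 3 libraries were chosen by their labels from the 11 RNA-sequencing libraries of the MamBo lines, which also cover MamBo89 and MamBo38. The question was which genes moved in the same direction in both trastuzumab-treated cultures. The line was established from a mammary tumor (tumor B) of an FVBhuHER2 virgin female mouse, which carries a human HER2 transgene. The submitters call MamBo43 HER2-labile, because its cells can lose HER2 expression, whereas MamBo89 comes from a different tumor (tumor A) and is called HER2-stable. MamBo38 was derived from a HER2-negative tumor that MamBo43 cells formed in a mouse, and it is called HER2 loss. All lines grew in DMEM with 20% fetal bovine serum, pituitary extract and a serum extender.

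All MamBo43 libraries share one library code. One came from untreated MamBo43 cells. One came from cells kept for 30 days in trastuzumab at 30 µg/ml and then for 30 days without it, called the withdrawn culture below. One came from cells kept for 60 days in the same dose, called the continuous culture below. Per the methods of the study, cells under trastuzumab were counted weekly and reseeded at high density, and those sequenced had lost HER2. Its results add that a small share of HER2-positive cells stayed detectable under trastuzumab, and that small islets of polygonal cells were left. The sources used here do not say for how long the untreated cells had been cultured, so trastuzumab and time in culture cannot be told apart. Each culture gave 1 library, and nothing in the labels says that the treated pair started from separate cultures, so that p-values measure only the spread between these libraries. The treated pair also differed in schedule, and the lone untreated library is assumed to vary like the treated ones.

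HER2 is a receptor tyrosine kinase of the ErbB family that drives growth in mammary carcinoma. Epithelial cells adhere to each other through E-cadherin, tight junctions and desmosomes, and they hold a program of transcription factors such as ELF5, EHF and GRHL2. In the epithelial-mesenchymal transition, factors of the ZEB and SNAI families repress junction genes by binding the bases CACCTG in their promoters. TWIST factors take part in the transition as well. The cells become spindle-shaped and secrete matrix proteins such as fibronectin and collagen I.

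Total counts were 26212551 in the untreated, 20592201 in the withdrawn and 26853067 in the continuous library, within the range of 17040454 to 27127662 of all 11 libraries. In these 3 libraries, 3 counts, taken as the detection floor, corresponded to 0.115 to 0.147 CPM (counts-per-million after scaling by library size). The treated pair was not 1 library deposited repeatedly, with a chi-square of 68.2 for each degree of freedom between their counts, which does not show that they came from separate cultures. The untreated library held the defining transcripts of mammary epithelium, at 633 CPM of Epcam, 775 CPM of Cdh1 and 1086 CPM of Krt18, while Krt19 and Krt5 had 0 counts. The human HER2 transgene was not analysed here, since the counts cover mouse genes, and its promoter is not given in the sources used here. The mouse gene Erbb2 had 117 CPM in the untreated, 31.6 CPM in the withdrawn and 19.9 CPM in the continuous library.

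Of 12971 genes with enough counts, 1598 were at least 2-fold higher and 1975 at least 2-fold lower in both treated libraries than in the untreated one, which is 12.3% and 15.2% of the genes, and 27.5% in all. Only 8 genes moved at least 2-fold in opposite directions, and 1581 moved that far in 1 of the treated libraries alone. Both ratios share the untreated library, so their likeness was not tested. At the limit of 2-fold, the smaller log2 ratio of the genes just inside and just outside was 1 and 0.999 on the higher side and -1.0009 and -0.9995 on the lower side. The continuous culture lay further from the untreated one in 1279 of the 1598 higher genes (80%) and in 1436 of the 1975 lower genes (72.7%). The median log2 ratio of the higher genes was 1.73 in the withdrawn and 2.01 in the continuous culture, and that of the lower genes was -1.73 and -2.08.

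**Figure D1:**
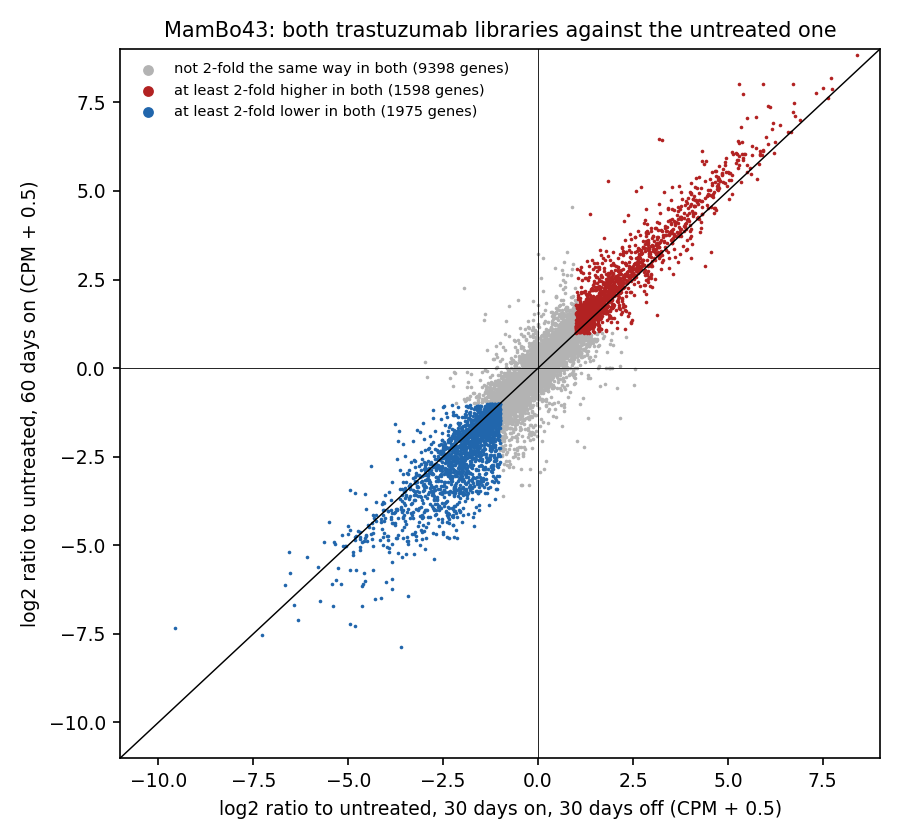
The log2 ratio of each of 12971 genes to the untreated library (CPM plus 0.5) in the withdrawn culture (x axis) and the continuous culture (y axis), with the line of equal ratios. The 1598 genes higher in both (red) and the 1975 lower in both (blue) mostly lie on the far side of the line, toward the continuous culture.

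With edgeR's quasi-likelihood test of both treated libraries against the untreated one, 4034 genes (31.1%) were called, which required an adjusted p below 0.1 together with a log2 fold change of 1 or more in size. Of these, 1916 (14.8%) were higher and 2118 (16.3%) were lower after trastuzumab. Among the called genes, 3452 had moved at least 2-fold in both treated libraries in that direction. The call rests on 1 residual degree of freedom among the samples. Without the continuous culture 2610 genes were called, and without the withdrawn culture 3741, in fits that took the spread from all 11 libraries. These fits changed the library and the source of the spread together. A call lost in them cannot be put down to the library alone. In bulk RNA, fewer cells of a type and less RNA per cell cannot be told apart.

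The largest rises that both libraries shared were in genes at low levels or without counts in untreated cells. Tenm2, a teneurin of the cell surface, had 0 counts in the untreated library, 170 CPM in the withdrawn and 227 CPM in the continuous culture, at least 1687-fold higher against a floor of 3 counts in the untreated library. Fez1, which acts in axon outgrowth and transport along microtubules, rose from 0.235 CPM to 158 and 173 CPM. Sema3a, a secreted guidance cue for axons and vessels, rose from 2.62 to 375 and 397 CPM. Gdf15, a stress-induced cytokine, rose from 0.744 to 130 and 321 CPM, and it was the gene of this group in which the treated pair lay furthest apart. Ddr2, a receptor tyrosine kinase for fibrillar collagen, rose from 4.03 to 473 and 682 CPM (log2 fold change 7.16 ± 0.43 SE, the standard error, edgeR adjusted p = 0.0139). This group also held Car6 (a secreted carbonic anhydrase), Avil (an actin-binding protein), Ostn, Medag, Glipr1 and Ugt1a6b. Ugt1a6b is uncertain, since 74.8% of its 75-base windows are found in its neighbours too, and so are Medag at 33.7%, Glipr1 at 14.3% and Ostn at 8.3%.

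The largest shared falls included transcripts that were highly abundant in untreated cells. Igfbp5, a secreted binding protein of insulin-like growth factors, had 12630 CPM in the untreated library, 16.1 CPM in the withdrawn and 77.0 CPM in the continuous culture. Hp, haptoglobin, fell from 5873 to 105 and 119 CPM (log2 fold change -5.72 ± 0.21 SE, edgeR adjusted p = 0.0133). Steap4, a metalloreductase, fell from 679 to 15.7 and 6.01 CPM. Since the genes were ranked by their ratio, the largest rises tend to start low and the largest falls higher by construction. Both Ntrk2 and Ntrk3, which encode receptors of the neurotrophins BDNF and NT-3, fell, from 122 to 1.03 and 0.383 CPM and from 101 to 0.981 and 1.99 CPM. The alarmin Il33 fell from 106 to 0.736 and 0.536 CPM, and Eln, the elastic fiber protein elastin, from 54.8 to 0.0981 and 0.498 CPM. Atp6v1b1, a proton pump subunit, had 2714 counts before and 4 and 2 counts after treatment. Kank4, the adhesion molecule Nfasc and the GABA receptor subunit Gabrp also fell, as did 1 predicted gene that is not described.

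Epithelial adhesion genes fell as a group. Of 19 tested genes of adherens junctions and the epithelial surface, 13 were called lower and none higher, with a median log2 fold change of -2.62, against -0.01 over all tested genes. The largest rise in the list was a log2 fold change of 6.21, and 1 member was called higher with DESeq2. Cdh1 encodes E-cadherin, the adhesion molecule of epithelial cells, and lies on chromosome 8 of GRCm38 (chr8:106603351-106670246). It fell from 775 CPM to 201 CPM in the withdrawn and 71.9 CPM in the continuous culture (log2 fold change -2.50 ± 0.63 SE, edgeR adjusted p = 0.0593). Jup, plakoglobin of both adherens junctions and desmosomes, fell from 453 to 80.2 and 40.9 CPM. St14 (matriptase, a surface protease) fell from 463 to 95.1 and 29.5 CPM, and Cd24a, a surface glycoprotein, from 342 to 41.2 and 18.3 CPM. In all of these the continuous culture was the lowest. Epcam, the epithelial adhesion molecule, went from 633 to 159 and 30.7 CPM and was not called (edgeR adjusted p = 0.106). Its treated libraries lay 5.17-fold apart, and it was called lower with either of them alone and when the spread came from 8 or 11 libraries. The p120 catenin gene Ctnnd1 was called lower at 394, 165 and 167 CPM, though 54.5% of its 75-base windows are shared with the overlapping gene model Gm28635.

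Among 17 tested tight junction genes, 11 were called lower and 1 higher, with a median log2 fold change of -2.40. The lower calls were 64.7%, against 16.3% over all tested genes. They became 4 with robust estimation or an adjusted p under 0.05, and 3 when tested against the fold limit itself. Cldn3, a claudin that seals the space between cells, fell from 234 to 56.3 and 13.6 CPM, and Cldn7 fell from 246 to 42.8 and 9.11 CPM. Occludin (Ocln) fell from 70.7 to 13.5 and 2.07 CPM (log2 fold change -3.19 ± 1.05 SE, edgeR adjusted p = 0.0950). The scaffold Tjp1, which mesenchymal cells also use, had 192, 158 and 123 CPM and was not called. With DESeq2 Cldn3, Cldn7 and Ocln were not called (adjusted p = 0.171, 0.119 and 0.190). Cldn1 went against the list and rose from 0.548 to 3.73 and 7.39 CPM. Of 10 tested desmosome genes, 5 were called lower and none higher. The desmosomal cadherin Dsg2 fell from 178 to 28.3 and 8.76 CPM, whereas Dsp, the plaque protein desmoplakin, had 214, 141 and 65.9 CPM and was not called (edgeR adjusted p = 0.173), except without the withdrawn library (edgeR adjusted p = 0.00274) or with the spread of all 11.

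Keratins, the intermediate filaments of epithelial cells, differed between the treated cultures. Krt18 had 1086 CPM in the untreated, 914 CPM in the withdrawn and 110 CPM in the continuous culture, and its partner Krt8 had 642, 471 and 64.3 CPM. For both luminal keratins the withdrawn culture thus lay near the untreated one and only the continuous culture was far below it. The counts of Krt8 are uncertain, since a pseudogene and a predicted gene share 23.5% of its 75-base windows. Krt7 had 260, 644 and 97.7 CPM, moving in opposite directions in the treated pair. Basal Krt14 had 2.39, 9.91 and 111 CPM, and its partner Krt5, named after its values were seen, had 0 counts, 1 count and 100 counts. Only 1 of 8 tested keratins was called (lower), and none of those named here was among them. Krt14 and Krt5 were called higher with DESeq2 and without the withdrawn library, and in the latter fit Krt8 and Krt18 were called lower.

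The epithelial genes did not all keep the same share of their untreated level. As a median over the members, the adherens junction and surface genes stood at 24.9% of the untreated level in the withdrawn and 8.68% in the continuous culture, and the tight junction genes at 24.1% and 9.49%. Elf5 stood at 0.468% and 1.83%, and Ehf at 5.71% and 3.52%. At the other end, Krt18 stood at 84.2% and 10.1%, and the splicing factor Esrp1 at 88.8% and 20.8%.

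**Figure D2:**
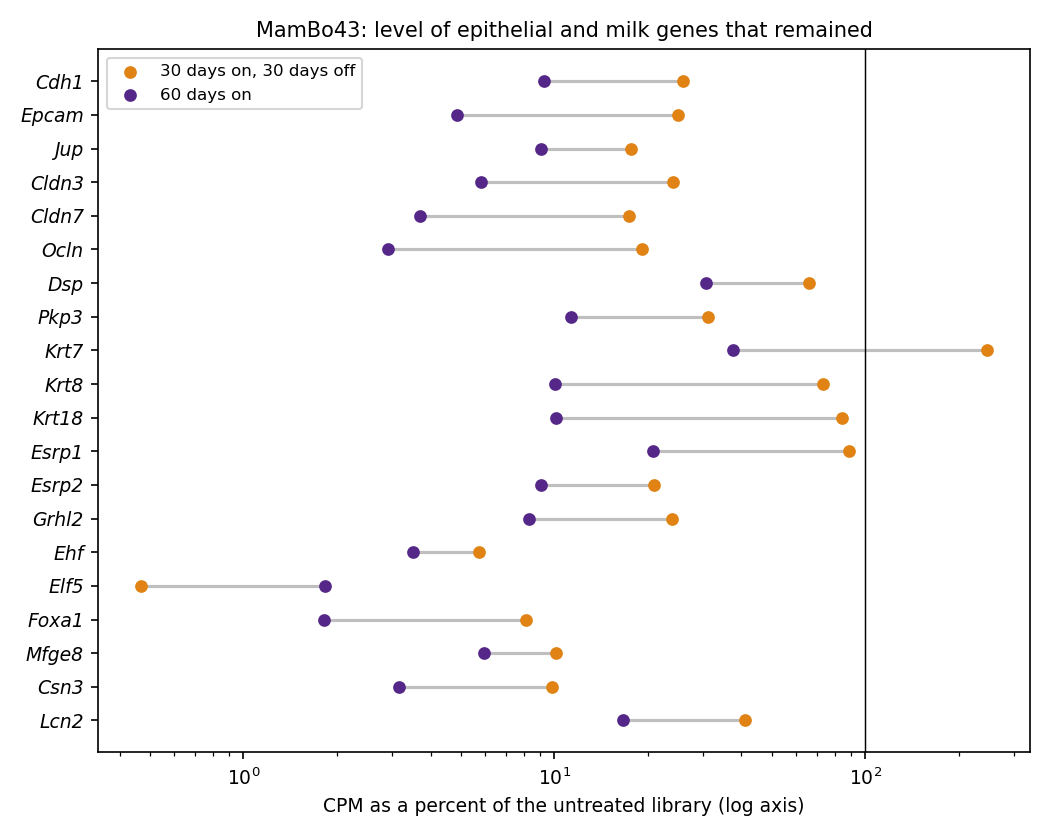
CPM in the withdrawn culture (orange) and the continuous culture (purple) as a percent of that in the untreated library, on a log axis, for 20 epithelial and milk genes chosen after their values were seen. Most junction genes lie near 25% in the withdrawn culture and below 10% in the continuous one, while Elf5, Ehf and Foxa1 lie lower and Krt7, Krt8, Krt18 and Esrp1 keep most of their level in the withdrawn culture.

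The transcription factors that keep the epithelial program were among the genes that fell. Of 16 tested epithelial splicing and transcription factors, 9 were called lower and none higher, with a median log2 fold change of -2.62. Elf5, which drives alveolar differentiation of the mammary gland, fell from 31.5 to 0.147 and 0.574 CPM (log2 fold change -6.37 ± 0.65 SE, edgeR adjusted p = 0.0171). Ehf fell from 307 to 17.5 and 10.8 CPM, Tfap2c from 138 to 12.3 and 4.21 CPM, and Grhl2, a keeper of the E-cadherin gene, from 127 to 30.5 and 10.6 CPM. The luminal factor Foxa1, named after its values were seen, fell from 35.7 to 2.89 and 0.651 CPM, while Gata3, named for the same reason, had 36.0, 27.3 and 27.02 CPM and was not called. Elf5, at 3 and 15 counts, was lower in the withdrawn than in the continuous culture. Ehf was nearly as low in the withdrawn as in the continuous culture, unlike Krt8 and Krt18.

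Genes of luminal differentiation and milk had the lowest median of all lists, -4.00 on the log2 scale, with 15 of 18 tested members called lower and 1 higher. Mfge8, a milk fat globule protein, fell from 5080 to 514 and 301 CPM (log2 fold change -3.64 ± 0.38 SE, edgeR adjusted p = 0.0172). Kit, the receptor of luminal progenitor cells, fell from 239 to 11.9 and 16.9 CPM. Stat5a, the transducer of prolactin signals, fell from 276 to 74.0 and 42.0 CPM, and Stat5b from 123 to 71.9 and 41.6 CPM. Stat5b was not called without the continuous library (edgeR adjusted p = 0.167). Both share a few percent of their 75-base windows, 5.12% and 6.99%, with each other. Lcn2, lipocalin of the inflamed and lactating gland, fell from 3922 to 1614 and 651 CPM, and the spectrin gene Sptan1 from 1726 to 651 and 454 CPM. Lcn2 was not called when either treated library was left out, nor with both kept when the spread came from all 11 libraries. The exception was Cited1, which had 0 counts in the untreated library and 0.540 and 0.574 CPM after treatment. It too was not called without either one, nor with the spread from 8 or 11 libraries.

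Promoters of the junction genes that fell were examined for CACCTG, since ZEB factors bind these bases. The windows run from 250 bases before to 50 bases after the start of transcription, and come from RefSeq on GRCm38.p6. Of the 36 genes of the adherens junction, tight junction, desmosome and epithelial factor lists that were called lower, 19 had a promoter in the table, and in 14 of these (73.7%) at least 1 window held CACCTG on either strand. The same was true of 22.6% of the 27025 genes with a promoter in the table and of 21.1% of the tested ones. Of the 23 members of these lists that were not called, 12 had a promoter and 5 held the bases. By contrast, 2 of the 31 genes with a promoter among those called higher in the 4 mesenchymal and matrix lists described below held them (6.45%). Over all genes with a promoter, the share was 28.6% of those called lower, 19.6% of those called higher and 19.8% of those not called. The AP-1 bases TGANTCA were held by 7.39%, 8.15% and 5.80% of the same groups, and the TEAD bases GGAATG by 18.2%, 16.2% and 13.3%. Both strands were searched, and CACCTG and TGANTCA can share the letters TG, as they do in the Lsr window. A match is a description of the letters, not of binding. These 4 promoters belong to genes that fell and were chosen after their values were seen, to show the bases occurring repeatedly in one window or singly. Capitals mark CACCTG or its reverse complement CAGGTG.
Lsr, a tricellular junction receptor, minus strand, chr7:30973420-30973719: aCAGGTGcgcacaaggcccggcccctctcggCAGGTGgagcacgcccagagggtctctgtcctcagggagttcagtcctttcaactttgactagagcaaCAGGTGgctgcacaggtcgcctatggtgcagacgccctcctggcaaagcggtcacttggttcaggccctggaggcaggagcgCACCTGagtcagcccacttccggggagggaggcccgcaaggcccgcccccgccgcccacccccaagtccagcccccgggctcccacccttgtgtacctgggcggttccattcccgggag
Ap1m2, a sorting adaptor of epithelial cells, minus strand, chr9:21312284-21312583: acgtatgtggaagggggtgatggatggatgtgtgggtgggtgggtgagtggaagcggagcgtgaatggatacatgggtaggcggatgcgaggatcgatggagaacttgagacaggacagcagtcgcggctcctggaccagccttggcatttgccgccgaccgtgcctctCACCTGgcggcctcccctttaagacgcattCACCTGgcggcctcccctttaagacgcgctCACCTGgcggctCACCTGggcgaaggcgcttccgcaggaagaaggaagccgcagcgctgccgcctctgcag
Rab25, a GTPase of epithelial membrane recycling, minus strand, chr3:88548230-88548529: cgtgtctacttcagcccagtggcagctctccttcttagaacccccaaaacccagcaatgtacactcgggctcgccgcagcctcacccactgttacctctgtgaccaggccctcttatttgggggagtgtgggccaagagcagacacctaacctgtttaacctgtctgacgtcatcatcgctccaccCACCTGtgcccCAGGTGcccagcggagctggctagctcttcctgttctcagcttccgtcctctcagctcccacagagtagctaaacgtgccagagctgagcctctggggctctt
Cldn3, the claudin described above, plus strand, chr5:134985964-134986263: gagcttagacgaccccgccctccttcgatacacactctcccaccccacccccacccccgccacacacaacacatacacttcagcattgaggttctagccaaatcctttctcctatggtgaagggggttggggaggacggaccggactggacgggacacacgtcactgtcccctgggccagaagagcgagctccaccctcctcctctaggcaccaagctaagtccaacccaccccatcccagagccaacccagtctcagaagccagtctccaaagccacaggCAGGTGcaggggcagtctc
Lsr and Ap1m2 each hold 4 copies, Rab25 holds 2 on opposite strands and Cldn3 holds 1. In the counts, Lsr went from 199 to 41.6 and 12.1 CPM, Ap1m2 from 84.1 to 23.6 and 7.69 CPM, and Rab25 from 132 to 32.9 and 10.5 CPM, and all of them were called lower.

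The transcription factors of the epithelial-mesenchymal transition moved unevenly. Of 14 tested factors, 8 were called higher and 1 lower, with a median log2 fold change of 1.46. Zeb1 rose from 2.86 to 47.5 and 54.0 CPM, and Zeb2 (chr2:44983632-45117395) from 3.76 to 116 and 145 CPM (log2 fold change 5.11 ± 0.28 SE, edgeR adjusted p = 0.0134). Both repressors were thus near the same level with and without continued antibody. Snai1 had 7.75, 12.1 and 12.5 CPM and was not called (edgeR adjusted p = 0.144), and Twist1 had 54.3, 41.4 and 48.8 CPM and was not called either. Among the other factors, Foxf1 rose from 1.53 to 53.2 and 73.8 CPM, and Prrx1 and Tcf4 rose less, with 44.5, 76.5 and 103 CPM and at 42.4, 83.8 and 101 CPM. Foxc1 went against the list, from 129 to 65.8 and 58.8 CPM. Prrx1, Tcf4 and Foxc1 were not called without the continuous library, at log2 fold changes of 0.78, 0.98 and -0.97.

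Genes of the mesenchymal cytoskeleton rose in 14 of 20 cases and fell in 1, with a median log2 fold change of 2.19. Vim, the intermediate filament vimentin, rose from 25.9 to 527 and 543 CPM (log2 fold change 4.37 ± 0.22 SE, edgeR adjusted p = 0.0133). Cav1, the coat protein of caveolae, rose from 32.0 to 129 and 158 CPM, Tagln2 from 97.2 to 519 and 582 CPM, and the actin crosslinker Actn1 from 261 to 1269 and 815 CPM. Acta2, smooth muscle actin, named after its values were seen, rose from 1.29 to 69.2 and 466 CPM and was the member with the widest gap between the treated cultures. The exception was Cdh2, N-cadherin, which is usually gained when E-cadherin is lost: it fell from 36.1 to 8.05 and 13.6 CPM (log2 fold change -1.74 ± 0.38 SE, edgeR adjusted p = 0.0452). Without the withdrawn library Cdh2 was not called (edgeR adjusted p = 0.122).

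Transcripts of the extracellular matrix were called higher more often than lower. Fn1, fibronectin (chr1:71585520-71653200), rose from 559 CPM to 34160 CPM in the withdrawn and 39760 CPM in the continuous culture (log2 fold change 6.05 ± 0.34 SE, edgeR adjusted p = 0.0134). Of 22 tested genes of fibrillar collagens and collagen maturation, 13 were called higher and 2 lower, with a median of 2.06. Col1a2 rose from 98.0 to 4680 and 4947 CPM and its partner Col1a1 from 115 to 1682 and 1849 CPM. Col3a1 rose from 22.8 to 439 and 711 CPM, and Col5a2 from 16.2 to 420 and 790 CPM. Col11a1, a minor fibrillar collagen, fell from 252 to 19.9 and 23.3 CPM, and the lysyl hydroxylase Plod2 from 366 to 160 and 172 CPM. The chaperone of collagen folding, Serpinh1, had 537, 527 and 886 CPM and was not called.

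Transcripts of other matrix proteins were also called higher more often than lower. Of 20 tested matricellular proteins and proteoglycans, 10 were called higher and 3 lower. The higher calls were 50%, against 14.8% over all tested genes. The share of lower calls did not exceed the 16.3% over all tested genes. The proteoglycans Vcan, Bgn and Dcn rose, from 9.91 to 306 and 511 CPM, from 40.9 to 1067 and 1952 CPM, and from 20.4 to 139 and 197 CPM. Hspg2, perlecan of basement membranes, rose from 126 to 847 and 994 CPM. Fbln2 fell from 988 to 207 and 168 CPM and the syndecan Sdc4 from 565 to 244 and 161 CPM, beside elastin above, and Fbln2 was not called without the continuous library (edgeR adjusted p = 0.102). Postn, periostin, a typical product of activated fibroblasts, had 2952 CPM in the untreated library and 2226 and 1708 CPM after treatment, and it was not called. The matricellular Thbs1 and Ccn1 had 2021, 788 and 229 CPM and 1479, 969 and 452 CPM and were not called either, though Thbs1 was called lower without the withdrawn library (edgeR adjusted p = 0.0145).

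Among 18 tested proteases of the matrix, plasminogen activators and their inhibitors, 9 were called higher and 2 lower. Mmp2, gelatinase A, rose from 8.54 to 383 and 527 CPM (log2 fold change 5.74 ± 0.36 SE, edgeR adjusted p = 0.0139). Its activator Mmp14 had 360, 221 and 269 CPM and was not called, while its inhibitor Timp2 rose from 414 to 1073 and 1171 CPM. Timp3 rose from 4241 to 12460 and 8201 CPM, though it shares 20.6% of its 75-base windows with Syn3, the gene it lies in. Timp2 was not called without the continuous library (edgeR adjusted p = 0.112), nor Timp3 without the withdrawn one (edgeR adjusted p = 0.177). The epithelial membrane-bound Mmp15 fell from 187 to 8.73 and 3.10 CPM, and Mmp10 from 6.89 to 0.0981 and 0.498 CPM.

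Of 16 tested integrins, the receptors for matrix, 3 were called higher and 5 lower, or 18.8% and 31.2% against 14.8% and 16.3% over all tested genes. Itga5, the alpha chain of the fibronectin receptor, rose from 16.4 to 118 and 166 CPM, and Itga11, which binds collagen I, from 0.666 to 28.7 and 35.8 CPM. The laminin receptor of hemidesmosomes fell in both chains, Itga6 from 270 to 132 and 71.9 CPM and Itgb4 from 263 to 64.2 and 37.6 CPM. The shared beta chain Itgb1 had 905, 890 and 836 CPM and was not called (log2 fold change -0.07, standard error 0.18).

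**Figure D3:**
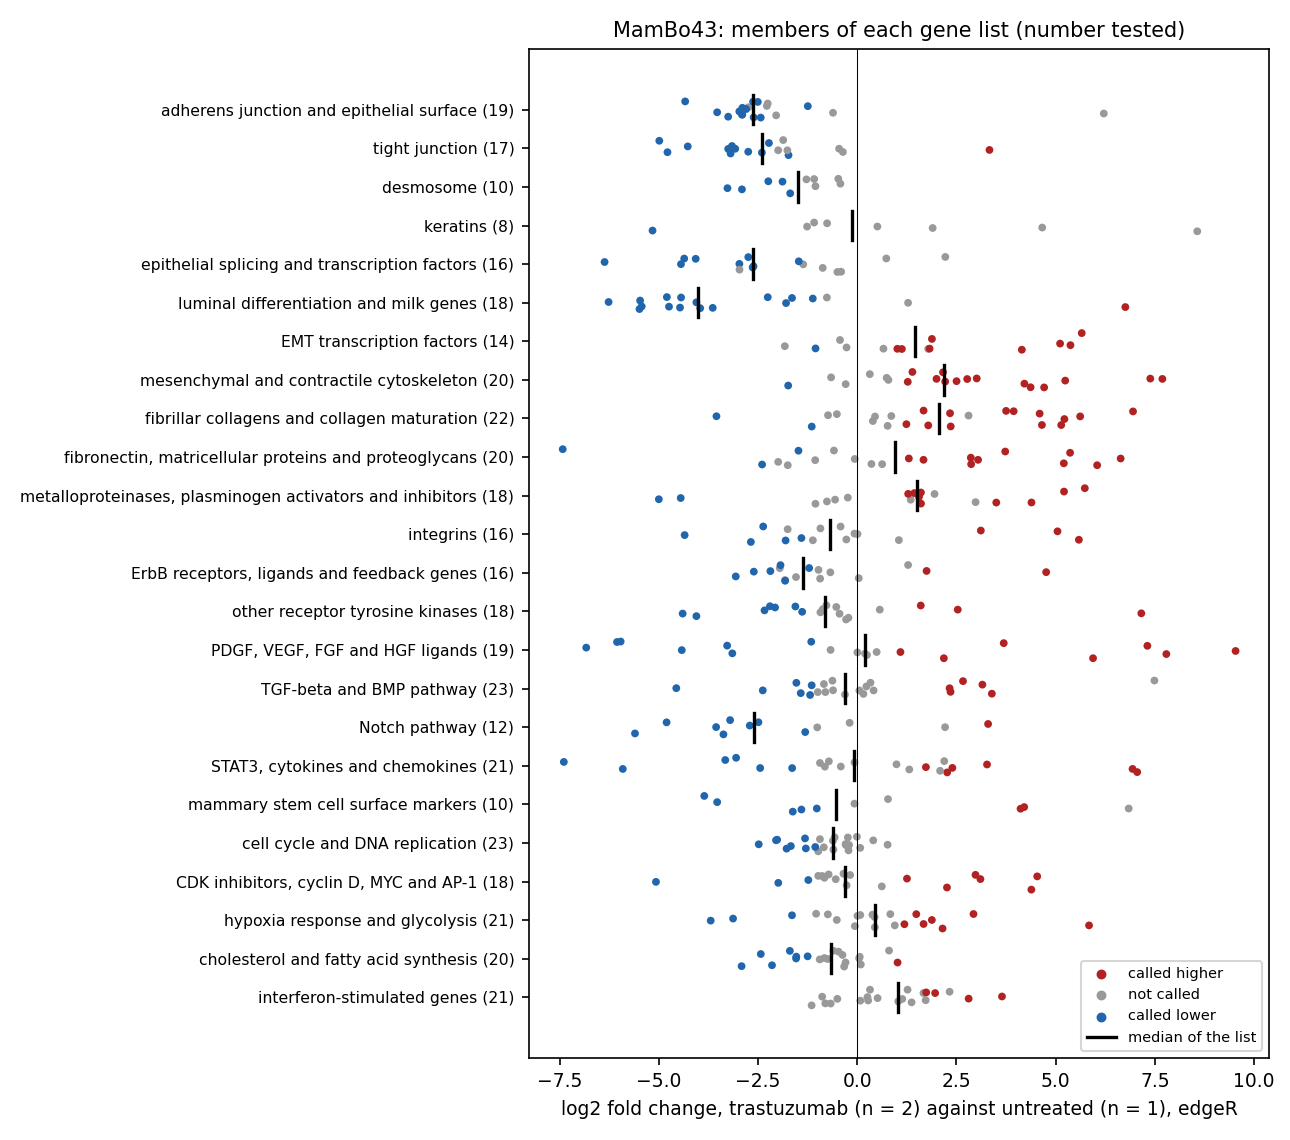
The edgeR log2 fold change of the treated libraries (n = 2) against the untreated one (n = 1) for each tested member of 24 gene lists, with calls in color and the list median as a bar. Luminal and milk genes have the lowest median (-4.00) and the mesenchymal cytoskeleton the highest (2.19). The most extreme positive values belong to genes at or near 0 counts in the untreated library, where the value depends on the prior count.

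Receptors of growth factors moved both ways. Of 16 tested genes of the ErbB family, its ligands and its feedback, 2 were called higher (12.5%) and 6 lower (37.5%), against 14.8% and 16.3% over all tested genes, with a median of -1.38. Mouse Erbb2 fell, at the levels given above (log2 fold change -2.19 ± 0.32 SE, edgeR adjusted p = 0.0262). It was not analysed here how far reads from the human transgene count toward it. Its partner Erbb3, named after its values were seen, fell from 128 to 23.9 and 6.81 CPM. Egfr fell from 104 to 34.4 and 54.9 CPM. The ligands that rose were Ereg, epiregulin, from 2.15 to 45.9 and 71.2 CPM, and Nrg1, neuregulin of ErbB3 and ErbB4, from 8.19 to 17.1 and 37.9 CPM. Nrg1 kept its call in only 4 of 12 alternatives. It was lost, among others, without the continuous library and with the spread from 8 or 11 libraries. Egfr was not called without the withdrawn library. The kinase gene Pak1, downstream of ErbB receptors, fell from 130 to 41.8 and 26.1 CPM, while the phosphatase Ptpn1 had 116, 64.0 and 57.0 CPM and missed the fold limit (log2 fold change -0.93).

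Of 18 other receptor tyrosine kinases, 3 were called higher (16.7%) and 7 lower (38.9%). The receptors of platelet-derived growth factor, which mark mesenchymal cells, rose: Pdgfrb from 51.0 to 298 and 292 CPM (log2 fold change 2.53 ± 0.19 SE, edgeR adjusted p = 0.0140) and Pdgfra from 48.1 to 146 and 145 CPM. Together with Ddr2 they were the 3 called higher. Fgfr1 fell from 1294 to 311 and 253 CPM and Igf1r from 244 to 100 and 86.1 CPM. Axl, often raised in mesenchymal carcinoma cells, had 327, 270 and 268 CPM and was not called. Among 19 tested ligands, 7 were called higher and 7 lower (36.8% each, against 14.8% and 16.3% over all tested genes). Vegfa, which acts on endothelial cells, rose from 213 to 440 and 466 CPM, and the fibroblast growth factor Fgf7 from 0.627 to 51.0 and 150 CPM. Pdgfa fell from 56.6 to 25.9 and 24.8 CPM, although 6330403L08Rik shares 18.7% of its 75-base windows, and Gas6, the ligand of Axl, fell from 1340 to 191 and 112 CPM.

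In the TGF-beta and BMP pathway, 5 of 23 tested genes were called higher and 6 lower, or 21.7% and 26.1% against 14.8% and 16.3% over all tested genes. Tgfb3 fell from 665 to 31.1 and 25.4 CPM (log2 fold change -4.56 ± 0.21 SE, edgeR adjusted p = 0.0133), whereas Tgfb1 had 85.0, 41.6 and 43.8 CPM and just missed the fold limit (log2 fold change -0.99). Inhba, the activin subunit, rose from 18.6 to 99.1 and 91.2 CPM and the latent binding protein Ltbp4 from 31.6 to 225 and 339 CPM. The antagonists Fst and Grem1 rose as well, from 1.88 to 8.54 and 15.4 CPM and from 2.59 to 22.6 and 31.8 CPM. Fst was not called without the continuous library (edgeR adjusted p = 0.133). Bmp4 had 91.4, 148 and 42.1 CPM and was not called.

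The Notch pathway, by which neighbouring cells signal through contact, had 8 of 12 tested genes called lower and 1 higher, with a median of -2.60. The receptor Notch1 fell from 329 to 49.98 and 67.1 CPM and Notch3 from 152 to 17.4 and 29.1 CPM, while Notch2 had 141, 144 and 102 CPM. The ligand Dll1 fell from 49.0 to 3.73 and 5.70 CPM and the target Hes1 from 125 to 52.0 and 48.9 CPM. Hes1 was not called when either treated library was left out, nor with both kept when the spread came from all 11 libraries. Its log2 fold change stayed between -1.35 and -1.27 over all settings. Hey1, another target, named after its values were seen, fell from 50.1 to 0.981 and 1.07 CPM. The ligand Jag1 rose instead, from 4.90 to 40.8 and 55.6 CPM.

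Of 21 tested genes of STAT3 signaling, cytokines and chemokines, 6 were called higher and 6 lower. That is 28.6% each, against 14.8% and 16.3% over all tested genes. Il6, interleukin 6, rose from 0.196 to 13.5 and 39.9 CPM and its signal transducer Il6st from 197 to 596 and 711 CPM. Stat3 itself had 420, 255 and 257 CPM and was not called. Csf1, the macrophage growth factor, rose from 230 to 1719 and 2722 CPM (log2 fold change 3.27 ± 0.41 SE, edgeR adjusted p = 0.0209), and the neutrophil attractant Cxcl1 fell from 452 to 156 and 134 CPM. Cxcl1 was not called without the continuous library (edgeR adjusted p = 0.129). Ptgs2, the cyclooxygenase that makes prostaglandins, rose from 50.8 to 641 and 899 CPM.

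Markers of mammary stem cells split. Cd24a fell and Ly6a (Sca-1) rose from 3.56 to 54.9 and 76.9 CPM. Cd44, the other marker of the CD24-negative, CD44-high profile, had 77.6, 133 and 133 CPM, below the fold limit (log2 fold change 0.78 ± 0.16 SE, edgeR adjusted p = 0.0427). Procr rose from 0.587 to 9.32 and 11.2 CPM, and Sox9 fell from 145 to 54.3 and 39.5 CPM. Ly6a was not called when either treated library was left out, nor with both kept when the spread came from 8 libraries. Its log2 fold change lay between 3.94 and 4.43 over all settings. In all, 2 of 10 tested members were called higher (20%) and 5 lower (50%), against 14.8% and 16.3% over all tested genes.

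Genes of the cell cycle and DNA replication were lower where they moved: 8 of 23 were called lower and none higher, with a median of -0.61. The 8 are 34.8%, against 16.3% called lower over all tested genes. Pcna, Mcm7 and Top2a, at 124, 104 and 111 CPM, at 103, 70.2 and 65.0 CPM and at 39.5, 22.6 and 21.5 CPM, were not called. Mki67, the proliferation marker, named after its values were seen, fell from 20.5 to 5.49 and 4.44 CPM. Cdkn1a, which encodes p21, an inhibitor of the cell cycle, rose from 60.2 to 296 and 740 CPM. Myc (chr15:61985391-61990374) rose from 82.1 to 378 and 410 CPM (log2 fold change 2.26 ± 0.20 SE, edgeR adjusted p = 0.0148). Within AP-1, Fos fell from 1691 to 373 and 480 CPM and Fosb from 1443 to 643 and 587 CPM, while Fosl1, named after its values were seen, rose from 3.21 to 61.8 and 73.0 CPM. Without the withdrawn or the continuous library, Mki67 and Fosb were not called. Fosb also lost its call with both treated libraries kept when the spread came from 8 or 11 libraries. Over all settings, the log2 fold change of Mki67 lay between -2.2 and -1.9 and that of Fosb between -1.3 and -1.17.

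Hypoxia and glycolysis genes did not move as one. Of 21 tested, 7 were called higher (33.3%) and 3 lower (14.3%), against 14.8% and 16.3% over all tested genes. Hif1a rose from 80.8 to 188 and 265 CPM, whereas Epas1, which encodes HIF-2 alpha, fell from 268 to 43.8 and 17.6 CPM, and their negative regulator Egln3 fell from 627 to 62.5 and 34.7 CPM. Ero1l, which forms disulfide bonds in the endoplasmic reticulum, rose from 194 to 799 and 922 CPM. The glycolytic Ldha and Gapdh had 760, 862 and 744 CPM and 557, 563 and 508 CPM and were not called. Gapdh shares 22.6% of its 75-base windows with predicted genes. Among 20 genes of cholesterol and fatty acid synthesis, 7 were called lower and 1 higher. That is 35.0% and 5.0%, against 16.3% lower and 14.8% higher over all tested genes. The master factor Srebf1 fell from 549 to 102 and 102 CPM and the desaturase Scd2 from 1110 to 142 and 153 CPM, whereas Fasn had 331, 223 and 255 CPM and was not called. Of 21 interferon-stimulated genes, 4 were called higher (19%, against 14.8% over all tested genes) and none lower. B2m, the light chain of MHC class I, rose from 246 to 718 and 1203 CPM, Bst2 from 103 to 235 and 456 CPM, and Isg15 from 16.3 to 65.9 and 162 CPM, in each case further in the continuous culture.

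Of 46 tested genes that the study names, 20 were called higher and 12 lower. That is 43.5% and 26.1%, against 14.8% and 16.3% over all tested genes. The study chose its genes on libraries that include the present ones, so the count is not independent evidence. Those not described above that were called are Qsox1, which rose from 83.3 to 166 and 262 CPM, Igfbp4, which rose from 22.7 to 538 and 752 CPM, and Il1rn, which fell from 27.7 to 2.16 and 3.33 CPM. Qsox1 missed the fold limit without the continuous library, at a log2 fold change of 0.996. Efnb1, Ceacam1, Ltbp1, Fgfbp1 and Sparc were not called.

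Markers of other cell types were examined, because a spindle-shaped population could hold stromal cells. The summed level of 8 mammary epithelial markers was 3169 CPM in the untreated, 1755 CPM in the withdrawn and 392 CPM in the continuous library, with 2 of 7 tested members called lower. The summed level of 10 fibroblast markers was 50.4, 151 and 153 CPM, nearly all of it Pdgfra, while Lum and Tcf21 had 0 counts in all 3 libraries, Dpt had at most 1 count and Fap at most 6 counts. Of the 3 tested members 2 were called higher, Pdgfra and Col14a1, which had 1 count before and 15 and 21 counts after treatment. Of 8 pericyte and smooth muscle markers, Rgs5 and Kcnj8 had at most 1 count, and the sum was 176, 44.9 and 63.8 CPM, in which Notch3 was the largest term. Of 6 tested members, 2 were called higher and 2 lower. Cspg4 rose from 1.997 to 16.7 and 18.2 CPM and Des, desmin of muscle, from 0 counts to 34 and 58 counts, while Abcc9 fell from 91 counts to 15 and 3 counts and Notch3 fell as given above. Neither Col14a1 nor Abcc9 was called without the continuous library (edgeR adjusted p = 0.125 and 0.250) or with DESeq2. The sum of 8 endothelial markers was at most 1.32 CPM, with 4 at 0 counts in every library. Among 10 leukocyte markers, 6 including Ptprc were at 0 counts in every library. Their sum of 76.7, 10.6 and 8.19 CPM was mostly Cd14 and Cd68, of which Cd14 fell from 75.6 to 6.87 and 3.52 CPM and Cd68 rose from 1.02 to 3.68 and 4.40 CPM. The sum of 6 adipocyte markers was 0.196, 0.981 and 2.76 CPM, mostly Fabp4. The part of other cell types in the results above was not tested.

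The position of the genes on the chromosomes was examined after the values had been seen. Over the genes with a mean of at least 5 CPM, the median log2 ratio to the untreated library was 0.01 in both treated cultures. The 433 genes of chromosome 15 had a median of 0.54 in the withdrawn and 0.72 in the continuous culture. On that chromosome 71.4% and 73.2% of genes lay above 0, and 147 (33.9%) were called higher against 12.9% of the genes of all other chromosomes. It carries Myc as well as the keratins Krt7, Krt8 and Krt18. Of 195 windows of 10 Mb with at least 20 genes over all chromosomes, 21 had a median of at least 0.3 in both treated cultures, of which 7 lie on chromosome 15. Those elsewhere include the 3 windows from 130 to 160 Mb of chromosome 4, with medians of 0.48 to 0.85 in the withdrawn and 0.58 to 0.94 in the continuous culture. Chromosome 10 had medians of 0.27 and 0.32 and chromosome X had -0.28 in both. As a whole, the other 17 chromosomes lay between -0.11 and 0.14 in the withdrawn and between -0.16 and 0.13 in the continuous culture. In MamBo89 under the same schedules, chromosome 15 had medians of -0.08 and -0.11. DNA was not measured here, and the part of chromosome copies in these values was not tested.

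**Figure D4:**
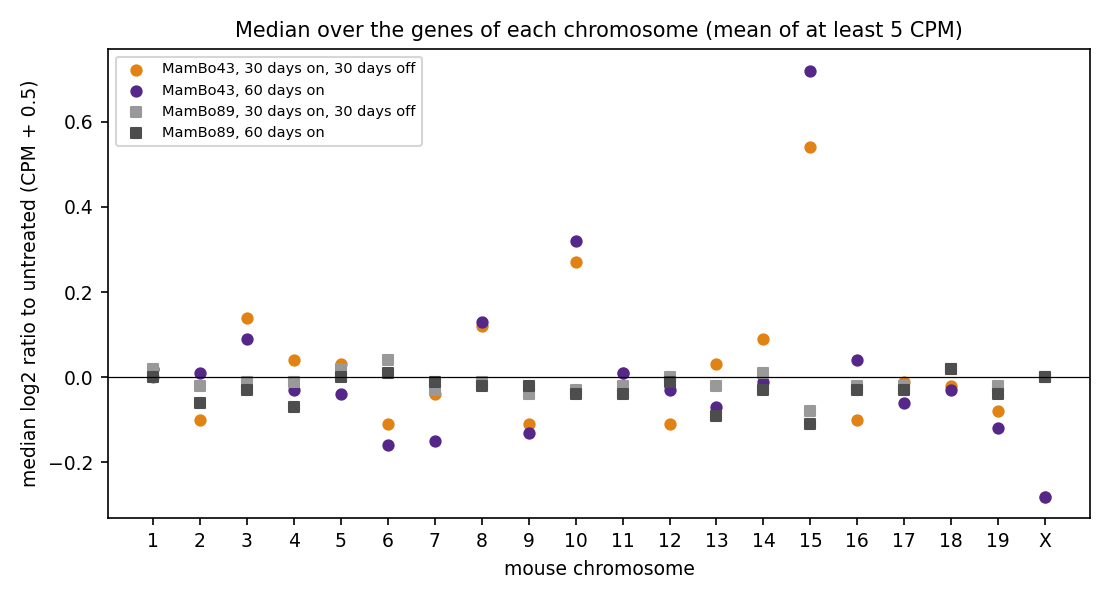
The median log2 ratio to the untreated library (CPM plus 0.5) over the genes of each mouse chromosome, in both treated cultures of MamBo43 (circles) and of MamBo89 (squares). Chromosome 15 of MamBo43 stands at 0.54 and 0.72, and no chromosome of MamBo89 lies outside -0.11 to 0.04.

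MamBo89 received the same schedules, and its libraries carry the same code as those of MamBo43, so that both responses can be compared. In MamBo89, with 2 treated libraries against 1 untreated library and a clone left out, edgeR called 0 of 13437 genes, while 116 had a raw p below 0.05. DESeq2 also called 0 genes there, and 73 had such a p. The spread between its treated libraries enters this test as well. The difference between both responses was then tested as an interaction, and edgeR called 2375 genes (17.7%), of which 1145 (8.52%) were more positive and 1230 (9.15%) more negative in MamBo43. Of the genes called in MamBo43, 1068 of those higher and 1176 of those lower were called in this test in the same direction, and none in the opposite one. Both tests use the same MamBo43 libraries, and edgeR called 0 genes in MamBo89. The shared direction thus follows largely from the design and is no separate evidence. The count of 2375 genes changed widely when 1 treated library of either line was left out, as given below, and the cause was not tested.

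Of the 16 epithelial splicing and transcription factors, 8 were called more negative and 1 more positive in MamBo43 in this test. Of the 22 collagen and collagen maturation genes, 6 were more positive and 2 more negative, and of the 20 matricellular proteins and proteoglycans 7 and 3. Elf5 had a log2 fold change of -0.33 in MamBo89, and its response differed by -6.01 on the log2 scale (edgeR adjusted p = 0.0181). Kit had 352, 329 and 315 CPM there and differed by -3.92 (edgeR adjusted p = 0.0126), and Vim had 45.3, 26.1 and 58.7 CPM and differed by 4.46 (edgeR adjusted p = 0.0282). Mmp2, Ddr2 and Zeb2 also differed, by 5.18, 9.02 and 4.42. Cdh1 had 1034, 1083 and 830 CPM in MamBo89, but the difference of -2.39 was not called (edgeR adjusted p = 0.126), nor was that of Epcam or of most tight junction genes. Dcn and Cav1 had 0 counts in these MamBo89 libraries, which leaves no response to compare.

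**Figure D5:**
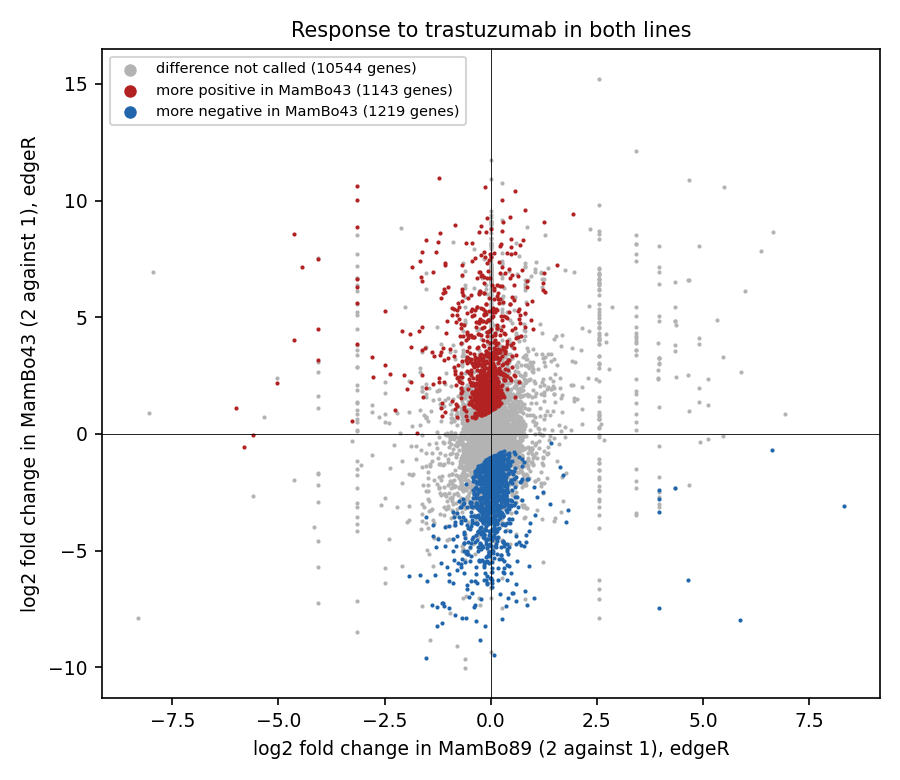
The edgeR log2 fold change after trastuzumab in MamBo89 (x axis) and MamBo43 (y axis), each 2 libraries against 1, for 12906 genes tested in both lines. Genes whose responses differ are colored (1143 more positive and 1219 more negative in MamBo43), and they spread along the MamBo43 axis while staying near 0 in MamBo89. Columns of points far from 0 in MamBo89 are genes with few counts there.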

How the data were processed

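RNA of 11 cultures of MamBo lines was sequenced in single-end mode with reads of 75 bases. The authors deposited expected counts per mouse gene, which they obtained with STAR 2.5 and RSEM 1.3.0, and the submitters' processing notes name the build mm10. All values were whole numbers. The counts are not normalized, so TMM factors over all 11 libraries were used here to compute CPM. The 3 MamBo43 libraries held 20592201 to 26853067 counts. Intervals and floors cover counting error only.

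Genes were kept by filterByExpr in edgeR 4.0.16 (R 4.3.3) with a minimum of 10 counts and a total of 15, and tested by quasi-likelihood with Benjamini-Hochberg adjustment, treated (n = 2) against untreated (n = 1). Each standard error (SE) is the size of the log2 fold change over the square root of its F statistic. The ratio of each treated library used CPM plus 0.5. The difference between lines was the interaction in a fit of 6 libraries of one code, without the MamBo89 library AG3, taken as the clone of the study. DESeq2 1.42.0, other scalings, filters, thresholds and libraries were alternatives. The scripts were tested on simulated counts.

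The text names the genes that the study names, the 12 called genes with the largest shared ratio in each direction (at least 5 CPM in the higher group, predicted genes not described), up to 6 members of each list with the highest mean CPM, called members that go against their list, and the 4 largest differences between lines in each direction. Named members were left out where nothing was added by them. One gene that the rule names is not reported here. Members and lists were chosen with earlier results of these data known. Gene positions are those of GRCm38. Shared windows are runs of 75 bases of a gene's transcripts that occur in another gene's.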

Additional observations from a re-analysis of the deposited data

Results flagged for a closer look

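The responses of MamBo43 and MamBo89 to the same schedules differed at 2375 genes by the interaction test of edgeR. The 4 genes whose difference was most positive were Ppef1 (13.64 on the log2 scale), Ostn (13.19), 9930111J21Rik1 (12.003) and Prdm16 (10.53). Ppef1, a protein phosphatase, had 0 counts in untreated MamBo43 cells and 9.32 and 7.31 CPM in the withdrawn and continuous cultures, at least 70.8-fold higher against a floor of 3 counts in the untreated library. Prdm16, a transcription factor of brown fat, went from 0 to 6.72 and 8.99 CPM, at least 66.9-fold higher, and had 3.27, 3.55 and 2.46 CPM in untreated, withdrawn and continuous MamBo89. The predicted gene 9930111J21Rik1 is uncertain, since it shares most of its sequence with neighbours.

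The 4 most negative differences were those of Plbd1 (-10.89), D630003M21Rik (-8.20), Atp6v1b1 (-8.10) and Ncald (-7.71). Plbd1, a phospholipase-like protein, went from 19.5 to 0.147 and 0.344 CPM in MamBo43, and had 0, 0.117 and 0.164 CPM in MamBo89. Ncald, a neuronal calcium sensor, went from 8.07 to 0.0981 and 0 CPM in MamBo43 and had 1.84, 1.34 and 3.39 CPM in MamBo89. Where a library is near 0 counts, as for most of these genes, the log2 difference depends on the prior count of the fit and is no bound.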

How the results depend on the processing

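The count of 4034 genes called after trastuzumab lay between 2610 and 3741 when 1 treated library was left out, and it was 1777 when glmTreat tested against the fold limit itself. Under the other 9 alternatives (DESeq2, 2 other scalings, 2 filters, a stricter adjusted p, robust estimation and the spread from 8 or 11 libraries) it lay between 2910 and 4242. The share of higher calls lay between 44.9% and 50.4%, against 47.5%. The 3573 genes moved at least 2-fold in both cultures became 6043 at 1.5-fold and 1295 at 4-fold, and each treated library alone gave 4016 and 4727. The 2375 genes that differed between the lines ranged from 416 to 3743 when 1 treated library was left out, and from 1634 to 2722 under the other alternatives.

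Of the genes named above, 6 that were not called with both treated libraries changed sign between fits that left 1 of them out. Their log2 fold changes without the withdrawn and without the continuous culture were -1.12 and 0.69 for Bmp4, -1.41 and 1.31 for Krt7, -0.032 and 0.18 for Ldha, -0.13 and 0.015 for Gapdh, -0.46 and 0.036 for Notch2, and 0.72 and -0.028 for Serpinh1. Calls ended most often with glmTreat, at 45 named genes, and with an adjusted p under 0.05, at 24. With DESeq2 they ended at 6, namely Abcc9, Cldn3, Cldn7, Col14a1, Ocln and D630003M21Rik, and the cause was not tested. Conversely, without the withdrawn culture Epcam, Krt8, Krt18, Esrp1, Dsp, Thbs1, Ceacam1, Fgfbp1 and Ptpn1 were called lower. Krt14, Krt5 and Fabp4 were called higher in that fit, and Krt14 and Krt5 also with DESeq2. Krt7 was called higher without the continuous culture. Epcam and Fgfbp1 were also called without the continuous culture, and these 2, Thbs1 and Ceacam1 with no filter and with the spread from 8 or 11 libraries, so that their lack of a call depends on the fit.

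No paired analysis was possible because the labels number no replicates and MamBo43 has 1 untreated library. With 1 untreated library, its own deviation enters every fold change, and no alternative can leave it out. At these depths genes under about 0.1 CPM cannot be told from absent ones.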

Other observations

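MamBo38, the line from a HER2-negative tumor of MamBo43 cells, gives levels to set beside the treated cultures, with no test, since its 4 libraries mix treatments and library codes. Some genes that fell in culture were lower still in MamBo38, but not all. Cd14, at 6.87 and 3.52 CPM after trastuzumab, had 7.72 to 11.55 CPM in MamBo38. Cdh1, at 71.9 CPM in the continuous culture, had 0.835 to 1.51 CPM in MamBo38, Epcam had 0.0377 to 0.279 CPM against 30.7 CPM, and Krt18 had 0.241 to 1.06 CPM against 110 CPM. Kit, at 11.9 and 16.9 CPM after trastuzumab, had at most 0.0558 CPM there. Erbb2 had 17.8 to 24.1 CPM in MamBo38 and 19.9 CPM in the continuous culture, while the withdrawn culture, at the level given above, lay over that range. Mmp2 lay close in both cultures, with 383 to 569 CPM in MamBo38 against 383 and 527 CPM. Zeb2 had 106 to 138 CPM against 116 and 145 CPM, and Myc had 403 to 446 CPM against 378 and 410 CPM.

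Fn1, Pdgfrb and Acta2 were higher in the treated cultures than in MamBo38. Fn1 had 15590 to 25390 CPM in MamBo38 and 34160 and 39760 CPM after trastuzumab, and Pdgfrb had 92.6 to 128 CPM against 298 and 292 CPM. Acta2 had 7.38 to 26.6 CPM against 69.2 and 466 CPM. Vim, by contrast, had 2007 to 3508 CPM in MamBo38 and 527 and 543 CPM after trastuzumab. Postn had 22.4 to 36.3 CPM in MamBo38, against 2952 CPM in untreated MamBo43 and 2226 and 1708 CPM after trastuzumab.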
